A study of Mus musculus with 4 samples.

Results

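The genes described here encode the enzymes that attach a polar group to drugs, dietary compounds, bile pigments, steroids and products of lipid oxidation, together with the carboxylesterases that hydrolyse esters before such a group is attached. They were taken by gene symbol: the Ugt1a, Ugt2a and Ugt2b genes, the Gsta, Gstk, Gstm, Gsto, Gstp, Gstt and Gstz genes, the Mgst genes, the Sult1 to Sult6 genes and the Ces1 and Ces2 genes. Of 89 annotated genes with such a symbol, 9 named as pseudogenes were left out, which gave 80 genes among the 30284 genes in the files. The 80 comprised 9 Ugt1a, 10 Ugt2, 4 Gsta, 7 Gstm, 11 other Gst, 3 Mgst, 21 Sult, 8 Ces1 and 7 Ces2 genes. No expression value entered the symbol rule.

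RNA was sequenced from small-intestinal organoids, epithelial cultures grown in Matrigel from crypts of 2 male C57BL/6J mice (9 weeks old, per the labels). Each mouse gave 1 culture with the vehicle DMSO and 1 with GW3965 at 2 µM, a compound that activates the liver X receptors (LXR), both collected at 6 h, so each group had 2 libraries. The comparison asks which transcripts differ when LXR is activated. No genetic change or further agent is named for either group. In the main comparison of the treatments, p-values measure the spread between these 4 cultures, which come from 2 animals. The estimate of that spread for a gene also draws on other genes at a like level.

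Conjugation in the intestinal epithelium rests on a few chemistries. UDP-glucuronosyltransferases (Ugt), anchored in the endoplasmic reticulum, transfer glucuronic acid from UDP-glucuronic acid. Glutathione S-transferases (Gst, mostly cytosolic, and the membrane-bound Mgst) join reactive electrophiles to glutathione, and cytosolic sulfotransferases (Sult) transfer sulfate from PAPS. Carboxylesterases (Ces) are usually counted with the enzymes of the preceding, activating phase, and they stand here because the symbol rule names them. Several of these genes are known targets of the xenobiotic receptors PXR and CAR, of the aryl hydrocarbon receptor and of the oxidative-stress factor NRF2.

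The Ugt1a genes are members whose values depend on how reads were assigned. On chromosome 1 of GRCm38 (GENCODE M21, plus strand) each of the 9 genes has its own exon 1, between 88055411 and 88212871, and all splice into the same exons 2 to 5. The common exons lie at chr1:88215044-88215175, chr1:88215795-88215882, chr1:88216138-88216357 and chr1:88218127-88218997. Ugt1a7c ends 1005 bases farther downstream in its exon 5. The last 25 bases of 4 first exons, followed in capitals by the first 25 bases of the common exon 2 (chr1:88215044-88215068), show where the transcripts become the same:
Ugt1a1: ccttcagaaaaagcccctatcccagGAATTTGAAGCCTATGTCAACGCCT
Ugt1a7c: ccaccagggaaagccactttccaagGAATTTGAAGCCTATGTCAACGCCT
Ugt1a6a: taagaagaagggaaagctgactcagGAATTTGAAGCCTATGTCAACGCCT
Ugt1a6b: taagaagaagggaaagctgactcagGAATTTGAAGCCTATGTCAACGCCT
Ugt1a6a and Ugt1a6b have the same letters on both sides of the junction. Their coding sequences differed at 26 of 1596 positions (98.4% identity). Of the 31-base words of exon 1, 100% were found in no other gene for Ugt1a1, 92.0% for Ugt1a7c, 40.97% for Ugt1a6b and 5.41% for Ugt1a6a. A read that lies wholly in the common exons 2 to 4 carries no information on which Ugt1a gene it came from, and kallisto, the program behind the counts, divides such reads between the genes by estimation.

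**Figure D1:**
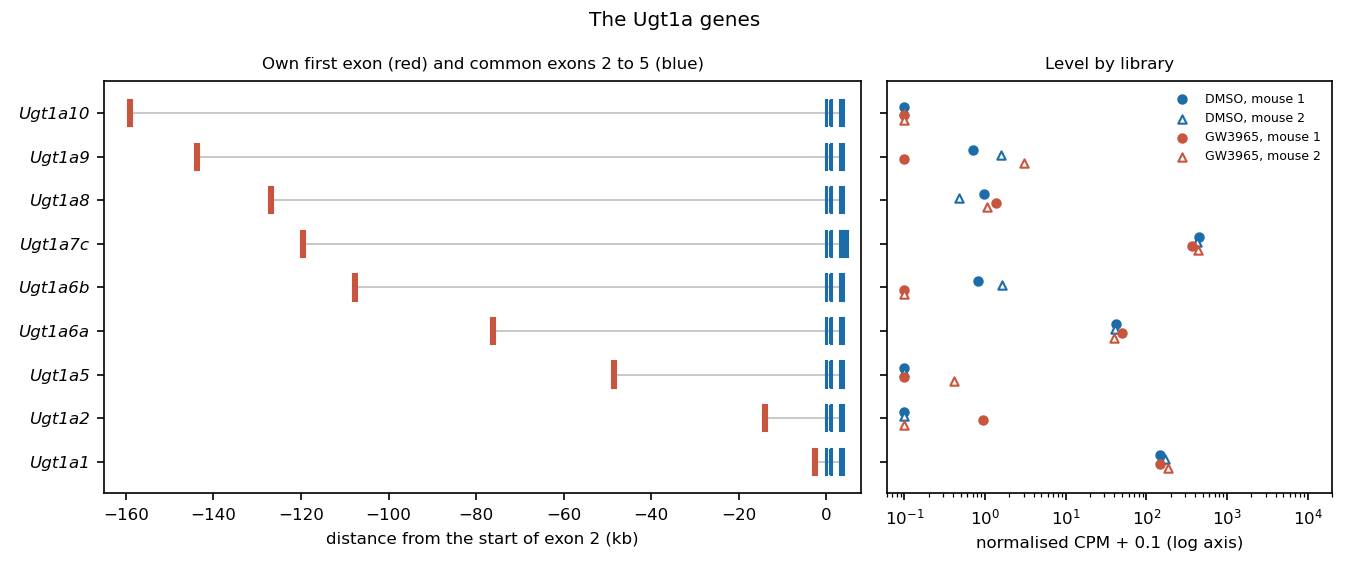
The 9 Ugt1a genes. The left panel draws each gene's own first exon in red and the common exons 2 to 5 in blue by distance in kb from the start of exon 2, and the right panel shows the normalised CPM plus 0.1 in each of the 4 libraries on a log axis. Ugt1a7c, Ugt1a1 and Ugt1a6a stand well above the other 6 genes, which sit at 2.94 CPM or less in every library.

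Close copies exist among the Gst genes as well. Gstp1 and Gstp2, neighbours on the minus strand at chr19:4035407-4037985 and chr19:4040285-4046023, differed at 12 of 633 coding positions (98.1% identity). Their first 90 coding bases are shown because 6 of those differences, in capitals, lie within them:
Gstp1: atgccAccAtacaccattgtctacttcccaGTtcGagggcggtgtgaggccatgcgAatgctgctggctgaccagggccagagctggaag
Gstp2: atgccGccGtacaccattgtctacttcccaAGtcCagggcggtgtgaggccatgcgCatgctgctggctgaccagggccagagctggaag
Gsta1 (chr9:78230656-78242684, plus strand) and Gsta2 (chr9:78331018-78355788, minus strand) were identical over the first 90 coding bases, given once here:
Gsta1: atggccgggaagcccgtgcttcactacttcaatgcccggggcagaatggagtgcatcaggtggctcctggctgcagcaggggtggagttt
Gstp1 shared 67.5% of its 31-base words with other genes, Gstp2 78.1%, Gsta1 65.6% and Gsta2 60.2%. How far the values of single genes in these groups depend on the division of shared reads was not tested, and sums over each group are given beside them. Ces2c likewise shared 48.6%, most of it with the pseudogene Ces2d-ps.

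Libraries held 16572359 to 19486547 estimated counts. The GW3965 library of mouse 1 stood apart: genes of the mitochondrial genome took 14.0% of its counts against 7.60 to 9.43% in the other 3 libraries. It lay at 48.5 on the first principal component (47.6% of the variance of log2 CPM), with the others between -27.8 and -9.49. Transcripts annotated as retaining an intron took 3.83% of its counts against 2.51 to 2.90%. The 15 epithelial markers summed to 16527 TPM (transcript abundance scaled for length and depth) in it and to 23005 to 25435 TPM in the others. The 15 immune markers summed to 118 and 106 TPM in the DMSO libraries of mouse 1 and mouse 2, and to 206 and 89.8 TPM in the GW3965 libraries. Most of each sum was Gzma, at 94.6 and 76.8 TPM with DMSO and 162 and 61.8 TPM with GW3965, in mouse 1 and mouse 2. Of the 12 immune markers tested 11 had a positive log2 fold change. Among the myeloid markers, C1qa (12 to 26 counts), Csf1r (9 to 17) and Lyz2 (34 to 53) were detected in every library, Itgam was at 0 in both libraries of mouse 2 and Adgre1 had 0 to 2 counts. The 8 crypt proliferation markers summed to 419 and 339 TPM with DMSO and to 300 and 356 TPM with GW3965, and 7 of the 8 had a negative log2 fold change. The 11 mesenchymal and endothelial markers summed to 9.54 and 10.6 TPM with DMSO and to 15.997 and 12.5 TPM with GW3965, in mouse 1 and mouse 2, and 1 of its 6 tested genes, Pecam1, had an unadjusted p under 0.05 in edgeR (0.0249). The 13 small-intestinal enterocyte markers summed to 5954 to 6776 TPM and the 9 colon markers to 34.0 to 37.6 TPM. The 6 liver or pancreas markers summed to 4.46 to 5.89 TPM, most of it Cela1 (49 to 78 counts), while Cpa1 and Prss2 were at 0 in all 4 libraries. The part of these differences in the results that follow was not tested, and values are given in each mouse. In bulk RNA, fewer cells of a type and less RNA per cell cannot be told apart.

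In vehicle-treated organoids these enzymes held 0.967% of all transcripts, 10020 TPM in mouse 1 and 9317 TPM in mouse 2. Being scaled for length, TPM allows genes to be compared with each other. Of the 80 genes, 42 reached a mean of 1 TPM, 34 reached 10, 15 reached 100 and 1 reached 1000. Of all genes in the files, 39.3% reached 1 TPM, 22.3% reached 10, 4.11% reached 100 and 0.538% reached 1000. The alpha-class Gst genes held 64.1% of the summed TPM, the other Gst genes 12.4%, Mgst 7.94%, Ces2 4.05%, Gstm 3.95%, Ugt1a 2.69%, Ugt2 2.59%, Sult 2.01% and Ces1 0.280%. Transcripts of the glutathione chemistry thus outweighed those of glucuronidation and sulfation; enzyme protein and activity were not measured.

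**Figure D2:**
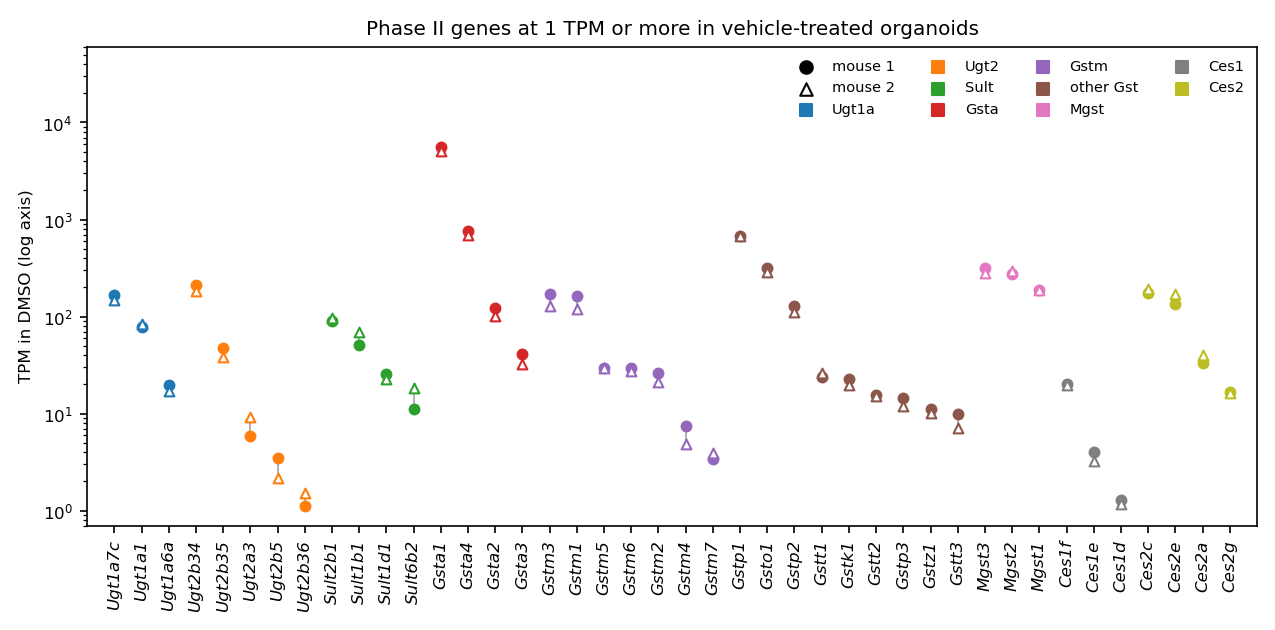
TPM in the DMSO libraries of the 42 genes at a mean of 1 TPM or more, on a log axis, by family and in falling order within it; circles are mouse 1 and triangles mouse 2. Gsta1 stands at 5096 and 5549 TPM, above every other gene of the 80, and the 2 mice lie close together for most genes.

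Gsta1, a cytosolic transferase, was at 5549 and 5096 TPM in the DMSO libraries of mouse 1 and mouse 2. It alone held 55.0% of the summed TPM of the 80 genes and ranked 18 among all genes in the files. Gsta4, known for conjugating the lipid peroxidation product 4-hydroxynonenal, followed at 768 and 686 TPM. Gstp1, the main pi-class transferase, was at 681 and 678 TPM, just under the range of Gsta4. Gsto1, an omega-class enzyme that reduces thiol adducts and dehydroascorbate, was at 317 and 289 TPM. The membrane-bound Mgst3, Mgst2 and Mgst1, which conjugate glutathione and reduce lipid hydroperoxides, had means of 298, 284 and 186.5 TPM. Mgst3 (316 and 280 TPM) and Mgst2 (275 and 293 TPM) overlapped between the mice, so their order is not set by these data. Among the mu-class genes Gstm3 (169 and 129 TPM) and Gstm1 (164 and 118 TPM) also overlapped, and Gstm5, Gstm6 and Gstm2 lay at 29.6, 28.5 and 23.7 TPM. Gstp2 and Gsta2, the near copies named above, were at 121 and 112 TPM. Gsta3, Gstt1 and the mitochondrial and peroxisomal Gstk1 were at 36.8, 24.96 and 21.3 TPM.

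In the glucuronidation families 1 gene led each cluster. Ugt2b34 was at 211 and 182 TPM and held 78.3% of the TPM of the 10 Ugt2 genes on chromosome 5. Its neighbours Ugt2b35, Ugt2a3 and Ugt2b5 followed at 42.8, 7.55 and 2.82 TPM. Ugt1a7c was at 168 and 148 TPM and held 60.9% of the TPM of the Ugt1a genes. Ugt1a1, the enzyme that conjugates bilirubin, was at 78.8 and 84.5 TPM, and Ugt1a6a, which takes simple phenols, at 19.7 and 17.1 TPM. The ranges of Ugt1a7c, Ugt1a1 and Ugt1a6a did not overlap. Retained-intron transcripts held 31.045 to 53.2% of the counts of Ugt1a6a. Ugt1a10 had 0 counts in all 4 libraries, Ugt1a2 had 14 counts in the GW3965 library of mouse 1 and Ugt1a5 had 6 in that of mouse 2, each with 0 in the other 3.

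Sulfotransferases were few. Of 21 Sult genes, 13 had 0 counts in all 4 libraries: Sult1c1, Sult1e1, the 8 Sult2a genes, Sult3a1, Sult3a2 and Sult5a1. A count of 0 allows up to 3 counts, which is 0.154 to 0.183 CPM in these libraries, for counting error only. The Sult2a genes, known as hydroxysteroid and bile acid sulfotransferases, were thus not detected at this depth. Sult2b1, which sulfates cholesterol and oxysterols, the latter ligands of LXR, led with 89.3 and 97.3 TPM. Sult1b1, a phenol and thyroid hormone sulfotransferase, was at 51.4 and 68.5 TPM, below Sult2b1 in both mice. Sult1d1, which sulfates catecholamines, was at 25.7 and 22.7 TPM. Sult1a1, the phenol sulfotransferase prominent in liver, had 2 to 11 counts per library and was not tested.

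For Sult6b2 (11.1 and 18.5 TPM), 88.9 to 96.0% of the counts of a library went to a transcript annotated as a target of nonsense-mediated decay. That transcript is 2160 bases long and the coding one 873, so shares of counts overstate the difference in abundance. Scaled for length, Sult6b2 was at 1.17 and 4.87 TPM in its coding transcript with DMSO, in mouse 1 and mouse 2. In the protein-coding transcript alone its CPM was 0.836 and 3.57 with DMSO and 0.553 and 1.97 with GW3965, in mouse 1 and mouse 2.

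The Ces2 genes were the main carboxylesterases. They form a cluster on the plus strand of chromosome 8 between 104734003 and 105021178, apart from the Ces1 cluster on the minus strand of the same chromosome between 93020214 and 93379725. Ces2c was at 176 and 191 TPM, Ces2e at 135 and 172 TPM and Ces2a at 33.4 and 39.8 TPM. Ces2a, Ces2c and Ces2e encode esterases of the gut and liver that cleave ester drugs and acylglycerols. Ces1f led the Ces1 genes with 20.2 and 19.8 TPM, 73.7% of that family. Ces1d, a triacylglycerol hydrolase of liver and fat, was at 1.22 TPM and Ces1g at 0.911 TPM.

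After 6 h of GW3965 no phase II gene passed the test in either direction. Of the 80 genes 52 had counts high enough to be tested: 6 Ugt1a, 5 Ugt2, 4 Gsta, 7 Gstm, 9 other Gst, 3 Mgst, 6 Sult, 6 Ces1 and 6 Ces2. Of the other 28, 16 were at 0 in every library and 12 had few counts. With edgeR's quasi-likelihood method and p-values adjusted (Benjamini-Hochberg) over 13602 genes, 0 of the 52 were higher and 0 were lower at an adjusted p under 0.05, and DESeq2 also called 0. Over all genes tested the same rule called 0.0588% higher, 0% lower and 0.0588% in either direction. In the same fit the sterol exporter gene Abca1, a standard LXR target, rose with GW3965 (log2 fold change 5.54 ± 0.43 SE, edgeR adjusted p = 0.00134). At an unadjusted p under 0.05, 0 phase II genes were higher, against 0.669% of all genes, and 1 was lower, against 0.382%; in either direction the share of all genes was 1.05%. The 1 gene was Ugt1a6b.

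The 95% interval of the log2 fold change lay within a 2-fold change in either direction for 39 of the 52 genes (75.0%), as it did for 77.0% of all genes tested. The remaining genes are not shown to be unchanged within 2-fold. The fitted log2 fold change was positive in 35 and negative in 17 of the 52, while 50% of all genes were negative. The median was 0.06, against 0.00 over all genes, and the median size without sign was 0.11 against 0.12. By mouse the median was 0.07 in mouse 1 and -0.04 in mouse 2. Without the GW3965 library of mouse 1 the median of the fit was -0.055, so its direction rests on that library. In mouse 1, 19 genes were negative (50.2% of all genes) and in mouse 2, 29 (50.7% of all genes). Both mice were positive for 14 genes (16.3% of all genes) and negative for 10 (17.2%).

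Among the 35 genes at a mean of 10 CPM or more, 5 differed between DMSO and GW3965 by 0.5 log2 or more in mouse 1 and 0 did in mouse 2. Over all genes at that level the shares were 15.9% in mouse 1 and 1.14% in mouse 2. The 5 were Mgst2, Gstt2, Sult1d1, Sult1b1 and Sult6b2, of which Gstt2 is named because of this count, after its values were seen. Whether the mice differed in response could not be tested, since each mouse had 1 culture per treatment.

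**Figure D3:**
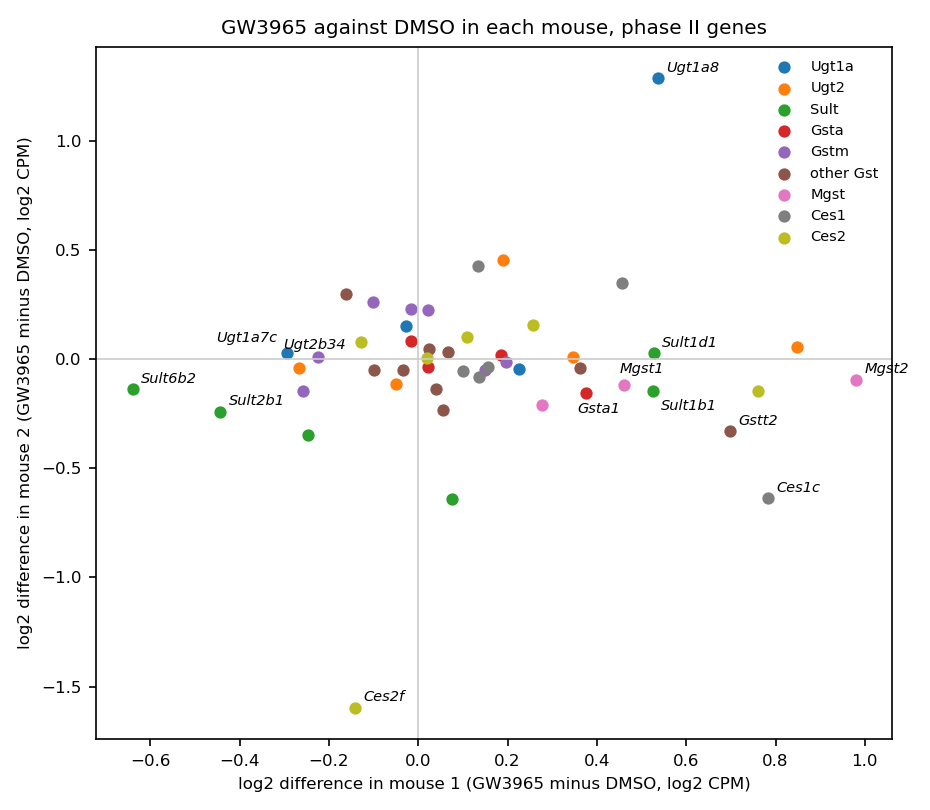
Log2 difference between GW3965 and DMSO in mouse 1 (horizontal) and mouse 2 (vertical) for the 50 tested phase II genes with counts in all 4 libraries, coloured by family. Most genes lie near 0 on the vertical axis, Mgst2 is farthest to the right at 0.98 and -0.09, and the outlying Ugt1a8, Ces2f and Ces1c are at 0.210 to 1.52 CPM in every library; Ugt1a6b and Ugt1a9, with 0 counts in some libraries, are left out.

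Normalised CPM (counts scaled to library size with TMM factors) are used from here on, since they put the libraries on 1 scale for each gene. They are given in the order DMSO and GW3965 of mouse 1, then DMSO and GW3965 of mouse 2. Except for Ugt1a6b, the adjusted p in edgeR's quasi-likelihood test was 0.99986 for every phase II gene named that was tested.

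Gsta1 was at 3484 and 4519.5 CPM in mouse 1 and at 3395 and 3054 CPM in mouse 2. The GW3965 library of mouse 1 was the highest and that of mouse 2 the lowest, so the groups overlapped. Its log2 fold change was 0.14 ± 0.28 (SE, n = 2 per group; 95% interval -0.49 to 0.77). Summed with Gsta2, the log2 fold change was likewise 0.14 ± 0.28. Transcripts that are not protein-coding held 5.87, 10.1, 4.995 and 4.80% of the counts of Gsta1 in the same order. Gsta4 was at 551 and 559 CPM in mouse 1 and 521 and 508 CPM in mouse 2, with overlapping groups (-0.01 ± 0.23; interval -0.52 to 0.51). Gsta3 had a log2 fold change of 0.11 ± 0.22.

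None of the pi, omega and theta class genes passed the test. Gstp1 was at 363 and 373 CPM in mouse 1 and 382 and 348 CPM in mouse 2, and the groups overlapped (-0.05 ± 0.23). The sum of Gstp1 and Gstp2, 433, 442, 446 and 410 CPM, gave -0.05 ± 0.23 as well. Gsto1 was at 291 and 271 CPM in mouse 1 and 281 and 271 CPM in mouse 2, both GW3965 libraries below both DMSO libraries (-0.08 ± 0.22). Gsto1 overlaps Cfap43 on the opposite strand, and the sources used here do not say whether strand was used in counting. Gstt2, a theta-class enzyme, was at 17.3 and 28.0 CPM in mouse 1 and at 17.6 and 14.0 CPM in mouse 2. It was thus higher with GW3965 in mouse 1 and lower in mouse 2 (0.27 ± 0.29). Among the mu-class genes, Gstm1 (0.07 ± 0.22) and Gstm3 (0.12 ± 0.22) overlapped between the groups.

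The Mgst genes, none of which passed the test, were all higher with GW3965 in mouse 1 and lower in mouse 2. Mgst2, which can also make leukotriene C4 (chr3:51660360-51682677, plus strand), was at 123 and 243 CPM in mouse 1 and at 138 and 129 CPM in mouse 2. A single library, GW3965 of mouse 1, was high, and the groups overlapped. The log2 fold change was 0.51 ± 0.29 (interval -0.14 to 1.17), with log2 differences of 0.98 in mouse 1 and -0.09 in mouse 2. Without the GW3965 library of mouse 2 the gene passed the test (0.90, edgeR adjusted p = 0.0410), and without that of mouse 1 its log2 fold change was -0.02; over the 13 alternatives the adjusted p ran from 0.0410 to 1. Mgst1 was at 120 and 165 CPM in mouse 1 and 115 and 106 CPM in mouse 2 (0.20 ± 0.25). Mgst3 was at 268 and 324 CPM in mouse 1 and 250.3 and 216 CPM in mouse 2 (0.06 ± 0.26). All 3 genes were highest in the GW3965 library of mouse 1 and lowest in that of mouse 2 or, for Mgst2, in the DMSO library of mouse 1.

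Beside these values stand those of transcript type. Retained-intron transcripts of the 80 genes took 6.23% of their counts in the GW3965 library of mouse 1 and 2.55 to 3.16% in the others. Most of these counts lay on a single transcript, Gsta1-202. It had 3981 and 7525 counts in mouse 1 and 3198 and 2795 in mouse 2, with DMSO and GW3965. For Mgst2 the share of counts in transcripts that are not protein-coding was 30.2 and 37.9% in mouse 1 and 30.6 and 28.3% in mouse 2. In its protein-coding transcripts alone Mgst2 was at 93.2 and 171 CPM in mouse 1 and 104 and 99.2 CPM in mouse 2 (0.46 ± 0.27, edgeR adjusted p = 0.99996). Whether transcript type had a part in the high library was not tested. Mgst2 overlaps the unclassified transcript gene Gm37261 on the same strand.

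**Figure D4:**
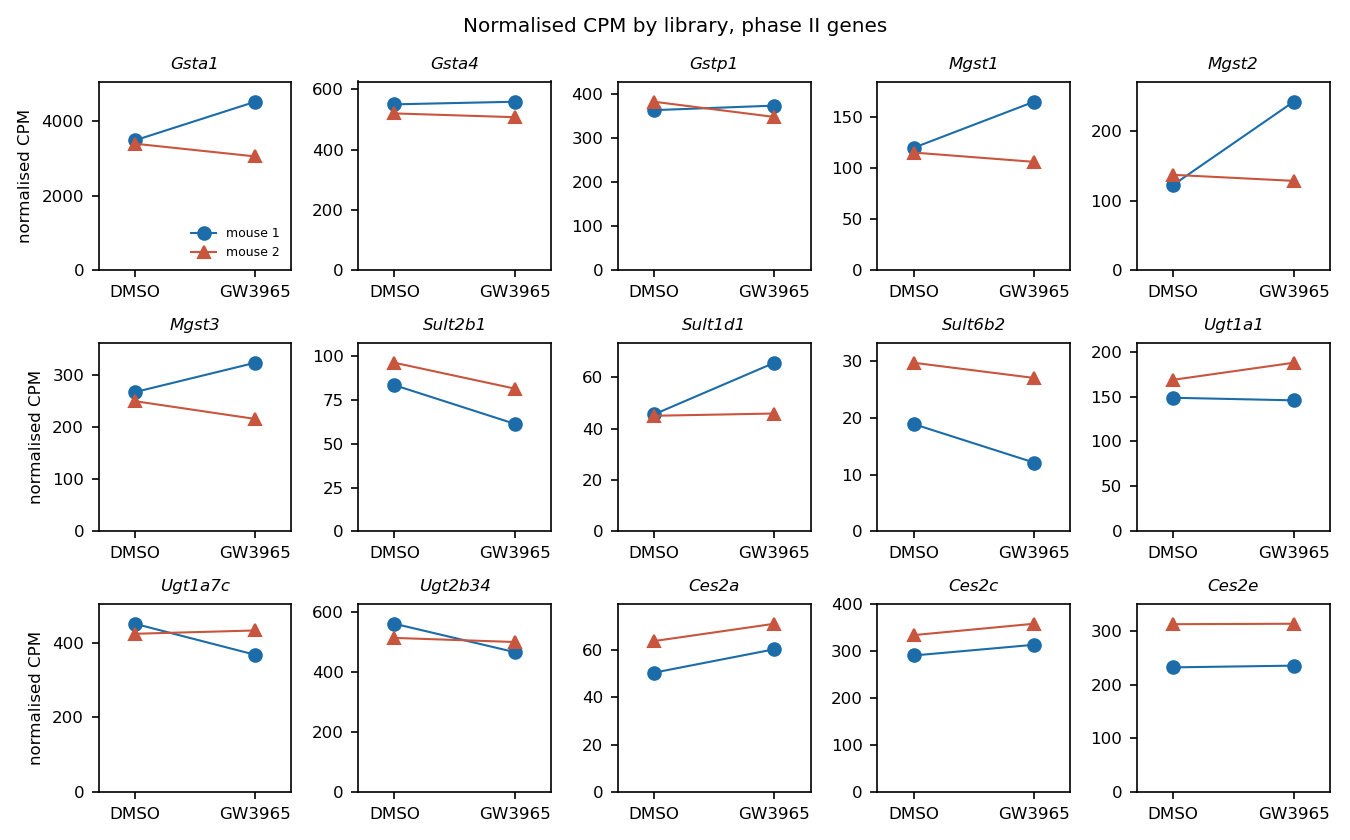
Normalised CPM of 15 phase II genes in the 4 libraries, from 0, with a line joining DMSO and GW3965 of each mouse (circles mouse 1, triangles mouse 2). The 3 Mgst genes and Gsta1 slope up in mouse 1 and down in mouse 2, Sult2b1 slopes down in both mice, and the 3 Ces2 genes differ more between mice than between treatments.

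Sult2b1 was lower with GW3965 in both mice without passing the test. It was at 83.5 and 61.4 CPM in mouse 1 and at 96.3 and 81.5 CPM in mouse 2. Both GW3965 libraries lay below both DMSO libraries, the nearest values being 81.5 and 83.5 CPM. The log2 fold change was -0.33 ± 0.21 (interval -0.80 to 0.14), with -0.44 in mouse 1 and -0.24 in mouse 2 as log2 differences. Among 13 alternatives the log2 fold change ran from -0.55 to -0.14 and the adjusted p from 0.0975 to 1. Sult2b1 (chr7:45729983-45784669, minus strand) overlaps Lmtk3 by 932 bases and Gm31597 on the opposite strand.

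The groups did not overlap for 11 of the 52 genes. GW3965 was higher for 5 (Ces1b, Ces1g, Sult1d1, Ugt1a8 and Ugt2b36), against 9.28% of all genes. It was lower for 6 (Gstm2, Gsto1, Sult1c2, Sult2b1, Ugt1a6b and Ugt2b34), against 9.18% of all genes. Several of these names fall outside the rule for named genes and were chosen for this list after their values were seen. The shares of the 52 are close to those of all genes.

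Sult1d1 and Sult1b1 had their highest value in the GW3965 library of mouse 1. Sult1d1 was at 45.6 and 65.7 CPM in mouse 1 and at 45.0 and 45.9 CPM in mouse 2 (0.30 ± 0.21; interval -0.17 to 0.77). Its 2 DMSO libraries were close to each other and the GW3965 library of mouse 2 lay just above them. Sult1b1 was at 50.1 and 72.2 CPM in mouse 1 and at 71.1 and 64.3 CPM in mouse 2, with overlapping groups (0.17 ± 0.21). Sult6b2 was at 18.9 and 12.1 CPM in mouse 1 and at 29.7 and 27.0 CPM in mouse 2 (-0.31 ± 0.35). For Sult6b2 both libraries of mouse 2 were above both of mouse 1.

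In the Ugt1a cluster the abundant genes did not pass the test. Ugt1a7c was at 450.1 and 367 CPM in mouse 1 and at 423 and 432 CPM in mouse 2, and the groups overlapped (-0.13 ± 0.23). Ugt1a1 was at 149 and 146 CPM in mouse 1 and at 169 and 188 CPM in mouse 2 (0.07 ± 0.23; interval -0.43 to 0.58). Ugt1a6a was at 42.3 and 49.5 CPM in mouse 1 and at 40.99 and 39.8 CPM in mouse 2 (0.10 ± 0.19). All 9 genes summed, which needs no division of the common exons, gave 643 and 565 CPM in mouse 1 and 636 and 664 CPM in mouse 2, with a log2 fold change of -0.06 ± 0.24 (edgeR adjusted p = 0.99982). The GW3965 library of mouse 1 was the lowest for the sum and for Ugt1a7c. In transcripts annotated as protein-coding, Ugt1a6a was at 31.7 and 26.3 CPM in mouse 1 and at 24.7 and 28.5 CPM in mouse 2 (-0.04 ± 0.20), so its sign depends on the retained-intron transcript.

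Ugt1a6b was the only member with an unadjusted p under 0.05, and its value rests on very few counts. It had 14 and 29 counts with DMSO and 0 and 0 with GW3965, in mouse 1 and mouse 2. With a floor of 3 counts in place of 0 in each GW3965 library, the DMSO mean was 6.64-fold the mean floor. That figure covers counting error only and not the division of shared reads. The DMSO counts lay on transcript Ugt1a6b-202 in mouse 1 and on Ugt1a6b-201 in mouse 2. Ugt1a6b did not pass the test (edgeR, unadjusted p = 0.000323, adjusted p = 0.220). With the mouse as a block it did (blocked edgeR adjusted p = 3.82e-05), the only member called in that fit, in which 0.125% of all genes were called lower, 0.228% higher and 0.353% in either direction. In that fit the variance comes from other genes at a like level, so the p does not hold the gene's own spread. DESeq2 gave an adjusted p of 0.0592 without and 0.9999 with the block, and over the 11 alternatives that gave a value the adjusted p ran from 3.82e-05 to 0.9999. It also passed without the DMSO library of mouse 1 (edgeR adjusted p = 0.00259). Ugt1a6b shared 84.2% of its 31-base words with other genes, 83.9% with Ugt1a6a. In the DMSO libraries Ugt1a6b was at 0.719 and 1.54 CPM beside 42.3 and 40.99 CPM of Ugt1a6a, so its counts depend on how the shared reads were divided.

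The other low Ugt1a genes varied by library. Ugt1a8 was at 0.873 and 1.28 CPM in mouse 1 and at 0.371 and 0.944 CPM in mouse 2 (0.82 ± 0.56). Ugt1a9 was at 0.616 and 0 CPM in mouse 1 and at 1.48 and 2.94 CPM in mouse 2. In counts this was 7 to 21 per library for Ugt1a8 and 0 to 56 for Ugt1a9.

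Among the Ugt2 genes, Ugt2b34 was at 562 and 467 CPM in mouse 1 and at 515 and 501 CPM in mouse 2. Both GW3965 libraries were below both DMSO libraries, and the log2 fold change of -0.15 ± 0.23 was smaller than its error. Ugt2b35 was at 69.4 and 67.1 CPM in mouse 1 and at 58.4 and 54.0 CPM in mouse 2 (-0.08 ± 0.20), lower with GW3965 in both mice but with overlapping groups. Ugt2a3 and Ugt2b5 were positive in both mice, with 0.15 ± 0.27 and 0.30 ± 0.31.

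None of the 6 tested Ces2 genes passed the test. Ces2c was at 291 and 313 CPM in mouse 1 and at 334 and 358 CPM in mouse 2 (0.10 ± 0.23; interval -0.41 to 0.62). Ces2a was at 50.4 and 60.2 CPM in mouse 1 and at 63.7 and 71.0 CPM in mouse 2 (0.20 ± 0.20). Ces2e was at 232 and 235 CPM in mouse 1 and at 312 and 313 CPM in mouse 2 (0.01 ± 0.26). In each of the 3 genes mouse 2 was above mouse 1 under both treatments. Ces2b and Ces2f, at 3.02 CPM or less in every library, had log2 differences of 0.76 and -0.15, and of -0.14 and -1.60, in mouse 1 and mouse 2, and are named after their values were seen. Ces1f was at 27.4 and 30.6 CPM in mouse 1 and at 28.3 and 27.6 CPM in mouse 2 (0.06 ± 0.18). Ces1g had a log2 fold change of 0.28 ± 0.36 and Ces1d of 0.03 ± 0.36.

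Between the animals, with treatment in the model, 2 of the 52 genes passed the test, both higher in mouse 2, against 0.684% of all genes. At an unadjusted p under 0.05 there were 4, against 5.01% of all genes. The log2 difference of mouse 2 from mouse 1 was 0.90 for Sult6b2 (edgeR adjusted p = 0.0222) and 2.80 for Ugt1a9 (edgeR adjusted p = 0.00157). DESeq2 called neither, and neither passed without treatment in the model. Ugt1a9 had 12 and 0 counts in mouse 1 and 28 and 56 in mouse 2, with DMSO and GW3965. It shared 67.8% of its 31-base words with other genes, and how far its value depends on the division of shared reads was not tested. For Ces2e, Ces2a and Ces2c the difference was 0.42, 0.29 and 0.20, with an edgeR adjusted p of 0.99607 each. The 2 cultures of a mouse are not separate animals, so these tests compare cultures. In the edgeR fit behind them, as in the fit with the mouse as a block, the variance comes from other genes at a like level. Its p-values therefore do not hold a gene's own spread.

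Genes that feed, accompany or clear the reactions gave 0 calls as well. Of 171 listed pathway and marker genes, 2 were not matched. In the list for UDP-glucuronic acid supply 0 of 5 tested genes passed in edgeR, with 3 positive and 2 negative. Slc35d1, which carries UDP-sugars into the endoplasmic reticulum, had a log2 fold change of 0.03 ± 0.18, and the glucuronosyltransferase gene B3gat3 had -0.07 ± 0.18. Ugdh, the dehydrogenase that makes UDP-glucuronic acid, was at 305 TPM with DMSO and had -0.02 ± 0.24.

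For PAPS supply 0 of 8 passed, with 3 positive and 5 negative. The sulfate transporter gene Slc26a1 had 8 and 15 counts in mouse 1 and 9 and 13 counts in mouse 2, both GW3965 libraries above both DMSO libraries (0.83 ± 0.55). Slc35b3, which carries PAPS into the Golgi, was at 26.6 and 38.6 CPM in mouse 1 and at 31.1 and 27.6 CPM in mouse 2 (0.20 ± 0.22), so the groups overlapped. The PAPS synthase genes Papss2 and Papss1 had -0.01 ± 0.28 and -0.10 ± 0.25.

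In the glutathione list 0 of 9 passed, with 3 positive and 6 negative. Gsr, glutathione reductase, was at 360 and 220.02 CPM in mouse 1 and at 317 and 351 CPM in mouse 2 (-0.25 ± 0.27), lowest in the GW3965 library of mouse 1. Gss, glutathione synthetase, was at 352 and 329 CPM in mouse 1 and at 359 and 328 CPM in mouse 2, lower with GW3965 without overlap (-0.11 ± 0.22). The NRF2 list had 0 of 14 passing, with 4 positive and 10 negative, and medians of -0.29 in mouse 1 and 0.09 in mouse 2. G6pdx, which supplies NADPH, was at 232 and 148 CPM in mouse 1 and at 192 and 218 CPM in mouse 2 (-0.21 ± 0.25). Mafg, a small Maf partner of NRF2, was at 144 and 221 CPM in mouse 1 and at 167 and 159 CPM in mouse 2 (0.29 ± 0.24). For both genes the GW3965 library of mouse 1 was the extreme one.

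In the AHR list 0 of 7 passed, with 3 positive and 4 negative. Ahrr, the repressor of the receptor, was at 4.21 and 6.33 CPM in mouse 1 and at 8.48 and 9.50 CPM in mouse 2 (0.32 ± 0.36), higher with GW3965 in each mouse with overlapping groups. Cyp1b1, a target of the receptor, had 13 to 26 counts per library (-0.27 ± 0.52). In the PXR and CAR list 0 of 11 passed, with 8 positive and medians of 0.16 in each mouse. Cyp2c66 was at 51.2 and 58.2 CPM in mouse 1 and at 43.2 and 49.1 CPM in mouse 2 (0.18 ± 0.19), higher with GW3965 in both mice with overlapping groups. Cyp2c55 was higher in mouse 1 alone, at 26.3 and 34.7 CPM against 22.2 and 21.4 CPM in mouse 2 (0.21 ± 0.25).

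For conjugate efflux and uptake 0 of 12 passed, with 7 positive and 5 negative. Slc51b, a subunit of the basolateral organic solute transporter, was at 13.8 and 25.3 CPM in mouse 1 and at 14.95 and 16.4 CPM in mouse 2 (0.53 ± 0.24). Its partner Slc51a was at 55.4 and 67.1 CPM in mouse 1 and at 58.6 and 70.0 CPM in mouse 2 (0.27 ± 0.18). Both genes were higher with GW3965 without overlap, as were the apical exporters Abcc2 (0.33 ± 0.22) and Abcg2 (0.19 ± 0.18). The exporter Abcb1b (-0.17 ± 0.34) and the uptake carrier Slco2b1 (-0.15 ± 0.28) were lower without overlap. For the rest of the 12 genes, not named here, the groups overlapped. Over all genes tested, 9.28% were higher and 9.18% lower without overlap.

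Of the other conjugating enzymes 0 of 6 passed (5 positive), of the deconjugating and other hydrolases 0 of 7 (2 positive) and of the microsomal partners 0 of 3 (1 positive). Nat2, an arylamine acetyltransferase, had 0.24 ± 0.22, and Glyat, which conjugates glycine, had 16 to 23 counts per library and 0.36 ± 0.45, higher without overlap. Aadac, a microsomal deacetylase, was at 99.1 and 139 CPM in mouse 1 and at 90.5 and 73.5 CPM in mouse 2, so higher with GW3965 in 1 mouse and lower in the other. Lipe, hormone-sensitive lipase, had -0.19 ± 0.28, and Cyb5r3 and Cyb5a, of the cytochrome b5 system, had -0.20 ± 0.25 and 0.11 ± 0.23. At an unadjusted p under 0.05 in the main edgeR fit, each of these 10 lists had 0 genes. At an adjusted p under 0.05, each likewise had 0 calls with the mouse as a block and in DESeq2. Slc51b had an unadjusted p of 0.0361 in the blocked edgeR fit, with an adjusted p of 0.99988. Ugdh, Papss1, Papss2, Abcc2, Abcg2, Abcb1b and Slco2b1 fall outside the rule for named genes and were added after their values were seen.

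Promoter windows of 300 bases around the start site (RefSeq, GRCm38.p6) were given for 70 of the 80 genes and for 27025 genes in all. The letters TGACNNNGC, the core of the antioxidant response element, were found on either strand in 4 member windows (5.71%), Gsta3, Gstm5, Gstm7 and Mgst1, and in 14.0% of all windows. GCGTG, the core bound by AHR, was found in 13 (18.6%) and in 35.2% of all windows. The LXR-type element, AGGTCA repeated after any 4 bases, was found in 0 member windows and in 0.015% of all windows, which says only that these letters are not in these windows.

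The authors' deposited table of log2 CPM held 35 of the 80 genes. Its log2 differences between GW3965 and DMSO within a mouse lay a median of 0.09 from those computed here. In the authors' deposited table the gap was widest for Mgst2, which had 0.53 in mouse 1 and -0.09 in mouse 2. In the authors' deposited table Sult2b1 had -0.19 in mouse 1 and -0.34 in mouse 2. Ugt1a6a had -0.13 in mouse 1 and 0.25 in mouse 2 there, against 0.23 and -0.04 here, so its sign differed in both mice. Sult1d1 had 0.38 in mouse 1 and -0.03 in mouse 2 there. Its groups overlapped in the authors' deposited table, unlike here.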

How the data were processed

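RNA from 4 organoid cultures, 2 per group, was sequenced on single-end reads from a stranded poly-A kit, per the labels' protocols. The authors deposited estimated counts and TPM per transcript from kallisto, on mm10 per the submitters' processing notes, which also name CASAVA 1.7 and FastQC. The sources used here do not give the kallisto version, the annotation release or the use of strand. The labels' extraction text speaks of colon, while the labelled tissue is small intestine. The authors also deposited a table of estimated counts rounded to whole numbers and a table of log2 CPM for 8524 genes.

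Estimated counts as deposited were summed per gene through GENCODE M21, rounded and tested by quasi-likelihood in edgeR 4.0.16 under R 4.3.3 (TMM scaling after filterByExpr; 13602 genes, Benjamini-Hochberg adjustment, threshold 0.05). Of 88198 transcripts, 2079 did not match and held 0.685 to 0.854% of the counts. In the main fit a gene's own residual degrees of freedom were 2, and 7.78 of the total of 9.78 came from other genes. The errors and intervals given share this. Log2 differences within a mouse use a prior count of 0.5. The same mouse number marks the same animal in the labels, so the samples are paired. Across genes, the deviations of same-mouse libraries from the group mean had a correlation of 0.06. The alternatives were a mouse block, DESeq2 1.42.0 with and without it, RLE size factors, no filter, the rounded table, no mitochondrial genes, near copies summed, each library left out and, chosen after seeing the data, protein-coding transcripts only. On simulated data (13399 genes) the fit without the block recovered 51% of genes changed 2-fold and 91% of those changed 4-fold. Of its 168 calls 26 were false, a larger share than the threshold of 0.05. The simulation held no mouse effect and far more changed genes than were called in the data. Its shares therefore do not tell how many changed phase II genes the real fit would have called.

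The members, gene lists and tests were chosen with earlier results of these data known. Genes named were up to 4 per family with the highest DMSO TPM, those with an unadjusted p under 0.05 or called with the block, those differing by 0.5 log2 or more one way in both mice, every Ugt1a gene, a list chosen for function, and 2 per pathway list with the smallest p.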

Additional observations from a re-analysis of the deposited data

How the results depend on the processing

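Of 483 values of named phase II genes under the alternatives, 480 kept their side of the threshold or had no call to change. The other 3 passed the test: Ugt1a6b with the mouse as a replicate block and without the DMSO library of mouse 1, and Mgst2 without the GW3965 library of mouse 2. With the block 1 phase II gene was called lower, and no other member's call changed. Leaving out 1 library gave 0 to 1 members called higher, 0 to 1 called lower and a median log2 fold change of -0.055 to 0.0887. Over all genes the block called 31 higher and 17 lower, DESeq2 17 and 3, DESeq2 with the block 1 lower and no filter 2 lower, against 8 higher and 0 lower, and leaving out 1 library gave 28 to 57 higher and 10 to 27 lower. Between the mice the 2 members called became 0 with DESeq2, 1 with near copies summed, 0 without the treatment term and 0 in protein-coding transcripts alone; the 93 genes in all became 28 with DESeq2, 10 without the treatment term and 56 in protein-coding transcripts. The cause of these changes was not tested. Where 1 library was left out, the lone sample is assumed to vary like the other group. Leaving out a library was not run for the mouse comparison, which then has no residual degrees of freedom.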
